A study of Zea mays with 48 samples.

Results

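In leaves of maize (Zea mays), 103 nuclear genes measured lower at vegetative stage V5 than at V4 in both genotypes and at all 4 growth temperatures. They were found among the 20570 nuclear genes tested, of 30432 nuclear identifiers and 33309 rows in the table. The unit is FPKM, a read count divided by transcript length and by the library's mapped reads, and differences are on the log2(FPKM + 1) scale, which understates the change of genes with low values. The genes were selected on these stage differences: a gene was taken when its group mean at V5 minus that at V4 was -0.58 or lower in each of the 8 pairs of same genotype and temperature, and when it reached 1 FPKM in at least 3 libraries. That stage difference is therefore what chose the genes, and it is described below with no test. All 103 genes passed the floor, because the floor is part of the choice.

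The study compared the inbred line W22 with the mutant bzip60-2, which carries an allele of the transcription factor gene bZIP60. Plants of each genotype grew in chambers at a maximum daily temperature of 31, 33, 35 or 37 °C, with 3 libraries for each of the 16 groups of genotype, stage and temperature (48 libraries). Blade tissue beside the midrib came from the middle of the youngest leaf that had finished expanding, 20 days after germination for V4 and 27 days for V5. The stages thus differ in plant age and in the leaf taken, and each temperature had its own chambers, so stage, age and leaf, or temperature and chamber, cannot be told apart. The labels describe replicates both as several plants and as a sample from each of 3 plants, and they give bzip60-2 no further genetic description. In leaf pieces, fewer cells of a type and less RNA per cell cannot be told apart.

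Maize leaves form in succession up the shoot, and the early ones differ from later ones in juvenile traits such as surface wax and the lack of hairs. A leaf that has just finished expanding has ended cell division and growth and works mainly in photosynthesis. bZIP60 belongs to the unfolded protein response: when unfolded proteins accumulate in the endoplasmic reticulum, its messenger RNA is spliced by the sensor IRE1 and an active factor is made. The series asks how that response is linked to the heat response. None of the 30432 nuclear identifiers matched the reference table of gene symbols (0 matches), so the genes are given by identifier, no function is assigned to them, and nuclear leaf markers could not be looked up. Among plastid genes, psaA and psaB, which encode the photosystem I core, measured 8.80 to 20.25 FPKM in the 48 libraries. The transcript of rbcL, the large subunit of Rubisco, was at 0 to 0.53 FPKM in this poly(A)-selected RNA.

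The FPKM of a library summed to between 869999 and 941520, with 24520 to 26641 rows above 0, and the absolute depth is unknown. The value of the lowest steps, in 11 to 33 rows per library, put the relative depths at 0.787 to 1.07. Size factors, the median ratio of a library to the geometric mean over genes, averaged 0.751 to 0.863 in the V4 groups of W22 and 0.879 to 1.05 in those of bzip60-2. The V5 groups averaged 0.947 to 1.204 in W22 and 1.16 to 1.29 in the mutant. A library with a higher factor gives a typical gene a higher FPKM. In 14 libraries Zm00001d033132 lay under 10 FPKM: 11 of W22 at V4 and the 3 of bzip60-2 at V4 and 31 °C, and 0 at V5. Replicate 3 of W22 at V4 and 37 °C, the remaining W22 library at V4, differed from its partners by a median of -0.11 (log2) over the 103 genes, and 1 gene differed by 1 or more. The part of these library differences in the results was not tested, and counts without W22 at V4 and bzip60-2 at V4 and 31 °C, the groups that hold these libraries, are given where they move. No V4 group at 31 °C remains in those counts, so their changes are set against 31 °C in V5 leaves alone.

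The genes spanned a wide range of levels. Their mean over the 16 groups ran from 0.708 to 724 FPKM with a median of 12.6, against a median of 8.90 over all nuclear genes tested. Of the 103 genes, 12 averaged at least 100 FPKM and 42 lay under 10. At V4 the median gene stood at 18.1 to 22.3 FPKM in the 4 groups of W22 and at 16.98 to 19.3 in those of bzip60-2. At V5 it stood at 7.29, 4.56, 4.04 and 6.67 FPKM in W22 at the 4 rising temperatures, and at 4.77, 2.95, 3.60 and 5.11 in bzip60-2. The lowest median at V4 thus lay above the highest at V5. Together the genes held 1.10% ± 0.00465 (SD, n = 3) of all FPKM in W22 at V4 and 31 °C and 0.544% ± 0.00646 at V5. In bzip60-2 at 31 °C the shares were 0.870% ± 0.0163 and 0.259% ± 0.00376. The smallest share was 0.208% ± 0.00429, in bzip60-2 at V5 and 33 °C.

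**Figure D1:**
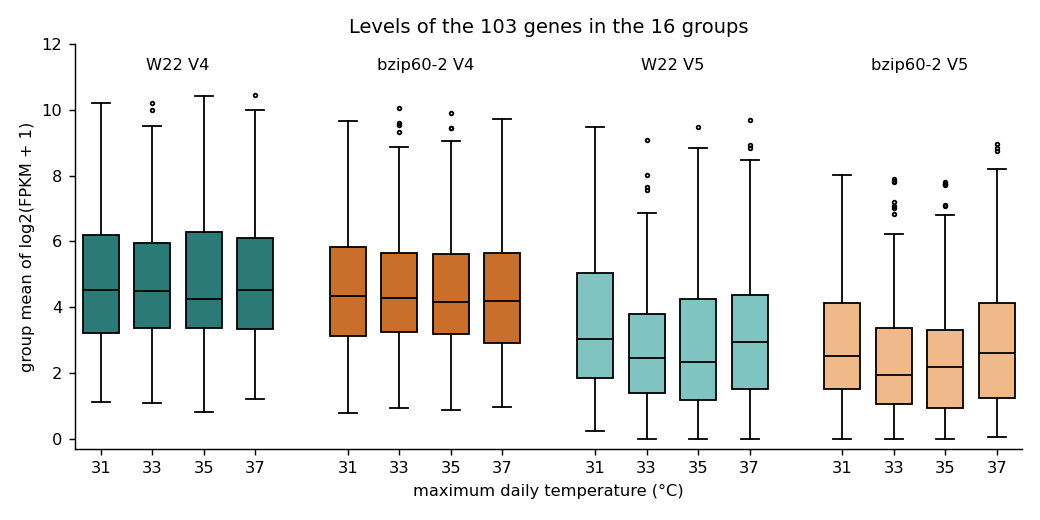
Levels of the 103 genes by group, as group means of log2(FPKM + 1); boxes span the quartiles with the median as a line, whiskers reach 1.5 box heights and dots lie beyond. The V4 medians of each genotype lie above its V5 medians, the boxes overlap in part, and at V5 the medians are lower at 33 and 35 °C than at 31 and 37 °C.

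Averaged over the 8 pairs, the stage difference of the genes had a median of -1.60 and ran from -3.44 to -0.88. It was -2 or lower in 31 genes and above -1 in 6. Of all nuclear genes tested, the -0.58 limit was met by 4.89%, 5.95%, 7.41% and 6.02% in W22 at 31, 33, 35 and 37 °C, and by 6.49%, 6.29%, 6.76% and 4.47% in bzip60-2. In 101 of the 103 genes all 3 V5 libraries lay below all 3 V4 libraries in each of the 8 pairs, and in the other 2 this held for 7 pairs. Among all nuclear genes 2.7% were so ordered in the 8 pairs. In 30 genes every one of the 24 V5 libraries lay below every one of the 24 V4 libraries, whatever the genotype and temperature (0.404% of all nuclear genes tested). These counts come from the contrast that chose the genes.

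Zm00001d044401 and Zm00001d044402 had the lowest mean difference, -3.44, and their values were identical in all libraries, so they cannot be told apart. In W22 at 33 °C they measured 56.6, 52.5 and 51.3 FPKM at V4 and 1.31, 1.23 and 1.31 at V5. In bzip60-2 at 33 °C the values were 49.6, 50.0 and 46.6 at V4 and 0.05, 0.07 and 0.31 at V5. All 6 libraries at V4 were high and all 6 at V5 low. At 31 °C the genotypes parted at V5: the 3 W22 libraries kept 31.9, 30.3 and 36.1 FPKM, while those of bzip60-2 read 0.2, 0.39 and 0.29. The next gene in order, Zm00001d044397, was singled out after its values were seen because its identifier lies close by. It measured 366 ± 20.0 and 18.9 ± 1.22 FPKM (SD, n = 3) at V4 and V5 in W22 at 33 °C, and 378 ± 10.1 and 7.55 ± 0.312 in bzip60-2.

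The 2 most abundant genes of the set had mean differences of -1.61 and -1.23. The first, Zm00001d021370, with 1042 FPKM on average at V4 and 406 at V5, had a lowest, median and highest library of 804, 1016 and 1533 FPKM at V4 and of 143, 332 and 838 at V5. The stages overlapped only at that upper end, in libraries of W22 at V5 and 37 °C (827 ± 9.04, SD, n = 3). The second, Zm00001d030557, had 625, 846 and 1374 FPKM at V4 and 177, 473 and 730 at V5. Its difference was -0.77 to -0.95 in the 4 pairs of W22 and -0.88 to -1.81 in those of bzip60-2.

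Some genes lay just beyond either side of the limit. Just inside, the highest of the 8 differences was -0.58 in Zm00001d028770, -0.59 in Zm00001d017840 and -0.59 in Zm00001d008612. Just outside it was -0.58 in Zm00001d025519 and Zm00001d024409, short of the limit in the next decimals, and -0.58 in Zm00001d031044. Zm00001d024409 had 53.9 to 82.8 FPKM at V4 and 13.1 to 52.2 at V5, without overlap, and a mean difference of -1.40. It was left out for its pair of W22 at 31 °C.

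**Figure D2:**
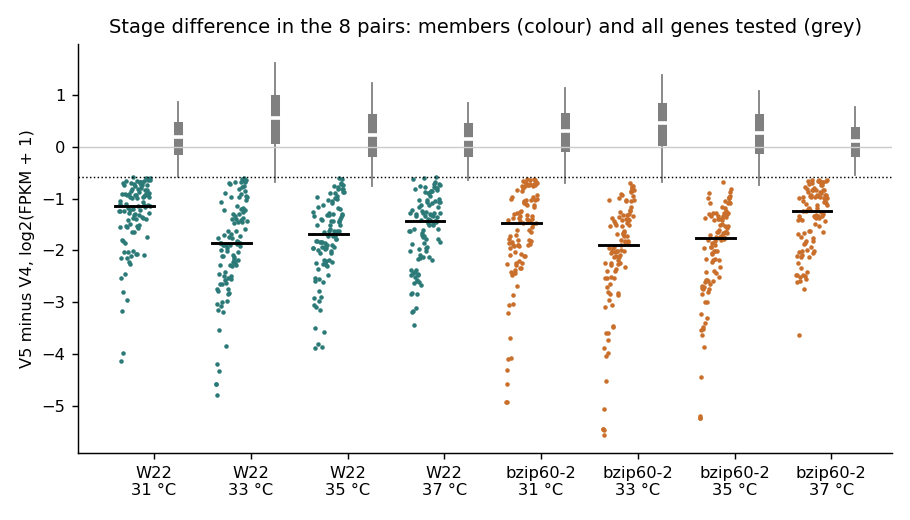
V5 minus V4 in log2(FPKM + 1) for the 8 pairs: coloured points are the 103 genes in the order of their mean difference, with the median as a black line; grey bars give the quartiles and thin grey lines the range from the 5th to the 95th percentile of all genes tested, with a white median. Every point lies at or below the dotted limit of -0.58 by choice, while the white medians of all genes lie above 0 in every pair.

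The stage difference varied with temperature within the limit that the choice set. The median over the genes was -1.13, -1.86, -1.67 and -1.43 in W22 at the 4 rising temperatures, and -1.47, -1.89, -1.76 and -1.24 in bzip60-2. With the genotypes averaged, the difference was largest at 33 °C for 44 genes and at 35 °C for 33. It was largest at 37 °C for 17 and at 31 °C for 9. The differences counted here chose the genes, and the share of all genes largest at each temperature was not counted. The median of all genes tested moved the other way, by 0.19, 0.56, 0.24 and 0.15 in W22 and by 0.31, 0.47, 0.28 and 0.12 in bzip60-2, so the genes were lower at V5 by more than these values when read against a typical gene. Relative to size factors 228 genes met the rule, all 103 among them. Over the 4 temperatures the median gene differed by -1.56 in W22 and -1.57 in bzip60-2, and the larger difference was in bzip60-2 for 63 genes and in W22 for 40. These 2 counts come from the differences that chose the genes, and the share over all genes was not counted. The 3 pairs of bzip60-2 at 33, 35 and 37 °C hold none of the 14 libraries low in Zm00001d033132. The median was -1.56 in them, against -1.54 in the other 5 pairs. The choice set the same limit in every pair, and these sets of pairs also differ in genotype and temperature. The likeness of the medians therefore cannot show what part those libraries play.

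Temperature was tested averaged over the 4 series of genotype and stage, a comparison that the stage difference does not enter. It used limma on the 16 group means, with Benjamini-Hochberg adjustment over the 22794 rows tested (two-sided, threshold 0.05). At 37 against 31 °C, 16 of the 103 genes rose and 22 fell, where 8.13% of all genes rose and 7.55% fell; as shares of the set these are 15.5% and 21.4%. At 35 °C 6 genes rose and 21 fell (5.83% and 20.4%), against 4.52% and 3.44% of all genes. At 33 °C 1 rose and 4 fell, against 0.285% and 1.55%. The median gene of the set changed by -0.32 at 33 °C, -0.28 at 35 °C and -0.07 at 37 °C, beside 0.05, 0.04 and 0.02 over all genes. At 37 °C 51 of the 103 genes lay above their value at 31 °C and 52 below, so the set held both directions. Over the 8 V5 groups alone, a smaller fit, 4 genes rose and 9 fell at 37 °C (1.597% and 2.44% of all genes), and 0 rose and 10 fell at 35 °C (1.62% and 1.399%). Without the groups low in Zm00001d033132, 4 rose and 14 fell at 37 °C (1.78% and 2.11% of all genes), and 0 rose and 11 fell at 35 °C (1.08% and 0.965%). Both of these smaller fits take 31 °C from the same V5 groups, so here and below they are not separate checks.

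Zm00001d037681 rose at 35 and at 37 °C. At 31 °C its lowest, median and highest of 12 libraries were 0.610, 5.85 and 23.6 FPKM, and at 37 °C they were 17.99, 45.7 and 97.2. The groups overlapped because V4 leaves at 31 °C reached the values of V5 leaves at 37 °C. Within each series all libraries at 37 °C were above those at 31 °C: the means went from 22.7 ± 1.09 to 94.2 ± 2.94 FPKM (SD, n = 3) in W22 at V4 and from 0.687 ± 0.0802 to 19.2 ± 2.13 in bzip60-2 at V5. The average change was 2.63 (SE 0.30, adjusted p = 0.000178, higher in 4 of 4 series), and at 35 °C it was 1.87 (SE 0.30, adjusted p = 0.00249). The call at 35 °C was lost over the V5 groups alone (adjusted p = 0.0958) and without the groups low in Zm00001d033132 (adjusted p = 0.0603). Zm00001d051799 rose at 35 °C by 1.73 (SE 0.30, adjusted p = 0.00450, 4 of 4 series), from a median of 1.22 FPKM over 12 libraries (0.540 to 3.42) to 11.5 (1.09 to 22.04). Its change was 0.86 over the V5 groups alone (adjusted p = 0.0708) and 0.86 without the groups low in Zm00001d033132 (adjusted p = 0.0616). The call was lost in both, which share their 31 °C groups.

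Zm00001d028750 had the largest rise at 37 °C, 2.70, with a wide error (SE 0.75, adjusted p = 0.0277, 4 of 4 series). Its 12 libraries at 31 °C read 0.220 to 43.1 FPKM with a median of 7.51, while at 37 °C the range was 20.7 to 107 with a median of 58.2. In W22 it was highest at 35 °C, at 427 ± 14.8 FPKM at V4 and 49.3 ± 1.06 at V5, whereas in bzip60-2 it was highest at 37 °C, at 91.2 ± 3.53 and 21.5 ± 0.681. Its call was lost over the V5 groups alone (adjusted p = 0.160) and without the groups low in Zm00001d033132 (adjusted p = 0.117). With no floor on FPKM it was also lost (adjusted p = 0.0609). Zm00001d000308 was the gene that rose at 33 °C, by 0.71 (SE 0.13, adjusted p = 0.0113, 4 of 4 series), from a median of 6.39 to 13.1 FPKM over 12 libraries each. Over the V5 groups alone it was 0.51 (adjusted p = 0.153) and without the groups low in Zm00001d033132 it was 0.56 (adjusted p = 0.322), and neither passed.

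Of the genes that fell, Zm00001d024734 went from a median of 69.2 FPKM at 31 °C (13.4 to 131) to 7.50 at 35 °C (1.12 to 43.2) and 19.8 at 37 °C (1.87 to 45.8). The ranges overlap across series, yet the mean was lower than at 31 °C in 4 of 4 series at both temperatures. The changes were -2.71 at 35 °C (SE 0.39, adjusted p = 0.00140) and -2.14 at 37 °C (SE 0.39, adjusted p = 0.00299). In W22 the lowest level was at 35 °C, with 12.8 ± 0.596 FPKM at V4 and 1.39 ± 0.387 at V5. In bzip60-2 it was at 37 °C, with 36.3 ± 0.590 and 2.00 ± 0.153. Zm00001d050106 fell by 1.75 on the log2 scale at 37 °C (SE 0.27, adjusted p = 0.00106, 4 of 4 series), from a median of 18.2 to 4.78 FPKM. It also fell at 33 °C, by 1.16 (SE 0.27, adjusted p = 0.0432). That call was lost without replicate 2 of bzip60-2 at V5 and 33 °C or of W22 at V5 and 33 °C (adjusted p = 0.0589 and 0.0502), and over the V5 groups alone (adjusted p = 0.161). It was also lost with a pseudocount of 0.1 (adjusted p = 0.0706), with no floor (adjusted p = 0.106), without W22 at V5 and 33 °C (adjusted p = 0.102) and without the groups low in Zm00001d033132 (adjusted p = 0.251). At 33 °C Zm00001d041578 fell by 0.83 (SE 0.18, adjusted p = 0.0343), and at 35 °C Zm00001d008173 fell by 2.29 (SE 0.40, adjusted p = 0.00479), both lower in 4 of 4 series. The call of Zm00001d041578 was lost with no floor on FPKM (adjusted p = 0.0773), without W22 at V5 and 33 °C (adjusted p = 0.102) and without the groups low in Zm00001d033132 (adjusted p = 0.140). The call of Zm00001d008173 at 35 °C was lost over the V5 groups alone (adjusted p = 0.0616) and without the groups low in Zm00001d033132 (adjusted p = 0.0603).

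**Figure D3:**
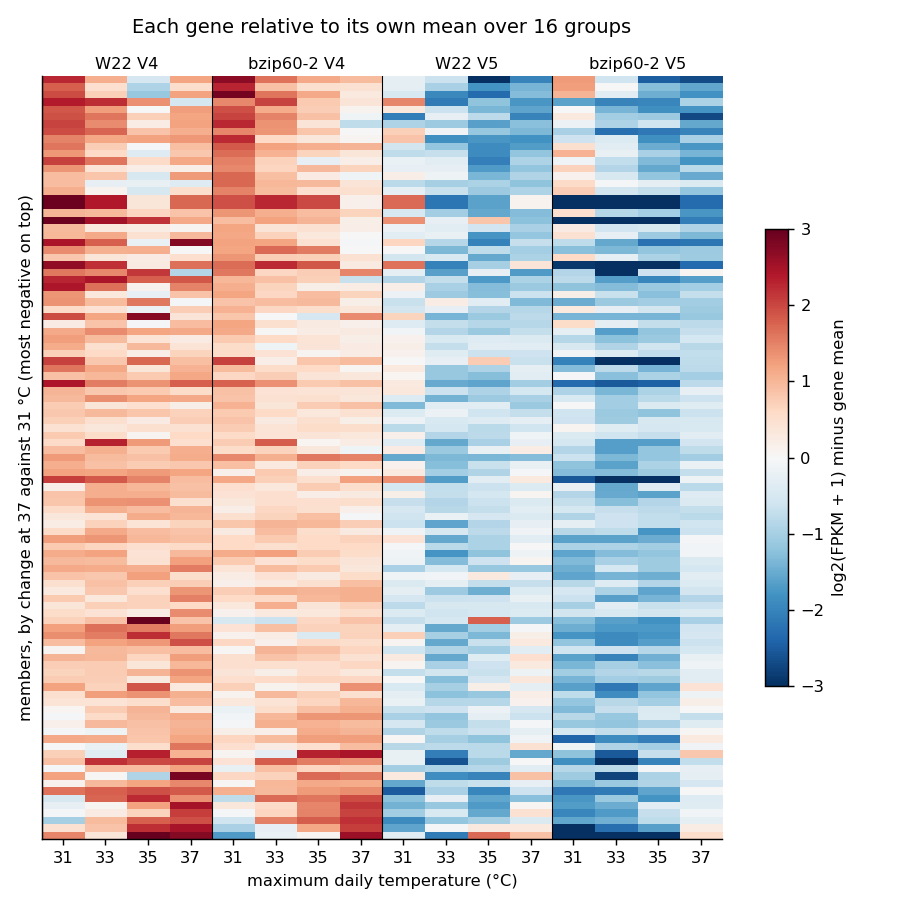
Each row is a gene of the set and each column a group (temperature in °C under each series); colour is log2(FPKM + 1) minus the gene's mean over the 16 groups, and rows run from the most negative change at 37 against 31 °C on top to the most positive at the bottom. V4 columns are red and V5 columns blue for most rows, and the uppermost rows are reddest at V4 and 31 °C.

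Within the 4 series, 37 against 31 °C was also tested on the single libraries with limma. This contrast shares groups with the stage difference and is not wholly independent of the choice, and its p values measure the spread between these samples, which may be technical. In W22 34 genes rose and 44 fell at V4 (33.0% and 42.7%, against 26.6% and 19.7% of all genes). At V5 27 rose and 47 fell (26.2% and 45.6%, against 21.9% and 22.3%). In bzip60-2 32 rose and 53 fell at V4 (31.1% and 51.5%, against 33.5% and 21.7%). At V5 the numbers turned to 54 rising and 31 falling (52.4% and 30.1%, against 20.8% and 32.8%). The median gene changed by -0.01, -0.27, -0.24 and 0.27 in these series in the same order, beside 0.05, 0.01, 0.08 and -0.08 over all genes. Rises passed in all 4 series for 15 genes (7.11% of all genes) and falls in all 4 for another 15 (6.5%). In bzip60-2 at V5, 56 of the 103 genes were highest at 37 °C and 38 at 31 °C, against 32 and 49 in W22 at V5. Of all genes the shares were 21.8% and 26.1% in bzip60-2, and 13.0% and 14.7% in W22. At V4 the numbers were 24 and 44 in bzip60-2 (43.4% and 32.2% of all genes). In W22 at V4 they were 30 and 38 (32.2% and 24.6%).

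Single genes show the range. Zm00001d041777 rose in W22 at V4 from 3.96, 3.41 and 4.02 FPKM to 31.7, 33.1 and 29.7 (log2 change 2.76, SE 0.14, adjusted p = 8.78e-19). Zm00001d033747 fell there from 112, 116 and 115 FPKM to 20.0, 21.6 and 18.7 (-2.45, SE 0.07, adjusted p = 3.89e-27), but in bzip60-2 at V5 it rose from 20.6, 19.2 and 20.0 to 39.4, 37.7 and 39.8 (0.93, adjusted p = 1.34e-14). Zm00001d053007 rose in W22 at V5 from 1.38, 1.86 and 2.52 FPKM to 9.85, 8.01 and 11.1 (1.87, SE 0.14, adjusted p = 4.91e-14), all values being far below the 47.8 to 52.05 FPKM of the same genotype at V4 and 31 °C. Zm00001d021026 fell in bzip60-2 at V4 from 17.04, 19.4 and 18.2 FPKM to 1.25, 1.59 and 1.2 (-3.04, SE 0.12, adjusted p = 8.37e-23). Zm00001d004059 fell in W22 at V5 from 6.10, 6.28 and 4.08 FPKM to 0, 0 and 0.04 (-2.66, SE 0.35, adjusted p = 3.70e-08), so the gene was listed at 0 in 2 of 3 libraries. In each of these comparisons the 3 libraries of a group lay apart from the 3 of the other.

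**Figure D4:**
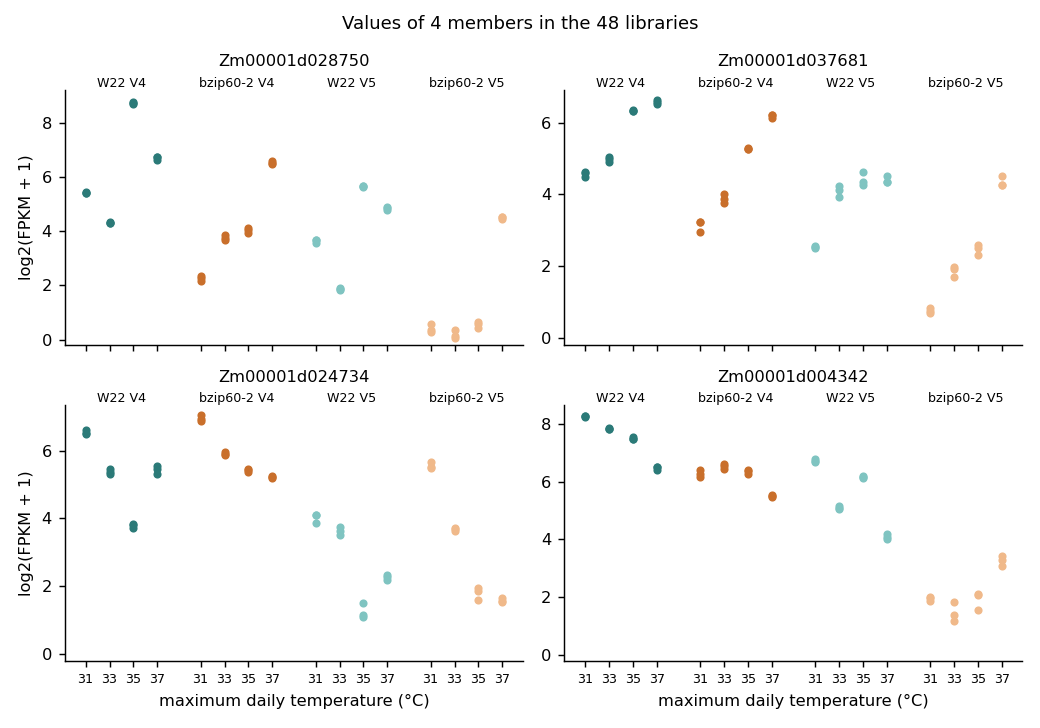
Values of 4 genes in the 48 libraries as log2(FPKM + 1), with temperature in °C under each series and a point for each library. Zm00001d028750 and Zm00001d037681 are higher at 37 than at 31 °C in each series, Zm00001d024734 is lower, and Zm00001d004342 lies lower in bzip60-2 than in W22 at both stages.

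Between the genotypes, averaged over the 8 pairs of group means of same stage and temperature, 40 of the 103 genes were lower in bzip60-2 and 11 higher (38.8% and 10.7%). Of all genes 4.78% were lower and 43.6% higher (limma on group means, Benjamini-Hochberg adjusted p under 0.05). The median gene of the set differed by -0.27, while the median of all genes was 0.20 higher in the mutant. Divided by size factors, that median came to 0.00 and the set's to -0.47. Then 49 genes of the set were lower and 1 higher, against 13.1% and 10.9% of all genes. By group means 16 genes (15.5%) were lower in the mutant in all 8 pairs, as were 2.29% of all genes, and 3 were below W22 in 0 pairs, as were 26% of all genes. The set's median difference was below 0 at each stage and temperature, from -0.01 at V4 and 35 °C to -0.49 at V5 and 31 °C. No gene of the set had all 24 libraries of one genotype below all 24 of the other (0 genes, against 0.132% of all genes for bzip60-2 below W22). Such an order would need the V4 libraries of one genotype below the V5 libraries of the other. That runs against the stage difference that chose the genes, so this count says little about genotype. Over the V5 groups alone 14 genes were lower and 1 higher, in a fit that called 1.13% and 6.34% of all genes.

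Zm00001d004342 was lower in the mutant in 8 of 8 pairs, by 2.37 on average (log2 difference -2.37, SE 0.46, adjusted p = 0.00272). Its lowest, median and highest of 24 libraries were 1.27, 26.5 and 97.4 FPKM in bzip60-2 and 15.2, 96.3 and 312 in W22. The gap was widest at V5 and 31 °C, at 2.89 ± 0.176 FPKM in the mutant and 104 ± 3.58 in W22, and it was narrow at V5 and 37 °C, at 8.61 ± 1.16 and 16.2 ± 1.00. Zm00001d028750 was also lower in 8 of 8 pairs (-2.37, SE 0.56, adjusted p = 0.00670), with a median of 7.98 FPKM in bzip60-2 and 35.1 in W22. At V5 it read 0.330 ± 0.135 FPKM in the mutant against 11.4 ± 0.450 in W22 at 31 °C, and 21.5 ± 0.681 against 27.7 ± 1.29 at 37 °C. Its genotype call was lost over the V5 groups alone (adjusted p = 0.0592).

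Genes higher in the mutant were fewer. Zm00001d018816 was higher in 8 of 8 pairs (0.97, SE 0.10, adjusted p = 8.32e-05), with 0.890 to 9.99 FPKM and a median of 3.48 in bzip60-2 against 0 to 5.53 and a median of 0.780 in W22. Zm00001d008173 was higher in 6 of 8 pairs (0.81, SE 0.31, adjusted p = 0.0476). It was lost after division by size factors (0.61, adjusted p = 0.186), over the V5 groups alone (adjusted p = 0.122) and with no floor on FPKM (adjusted p = 0.0944). It was also lost when any of 8 single libraries was left out, namely replicate 3 of bzip60-2 at V4 and 37 °C, replicate 1 of W22 at V4 and 33 °C, replicate 3 of W22 at V4 and 37 °C, replicate 1 of bzip60-2 at V5 and 33 °C, replicate 3 of bzip60-2 at V5 and 35 °C, replicate 1 of bzip60-2 at V5 and 37 °C, and replicates 1 and 3 of W22 at V5 and 37 °C (adjusted p 0.0503 to 0.0560).

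**Figure D5:**
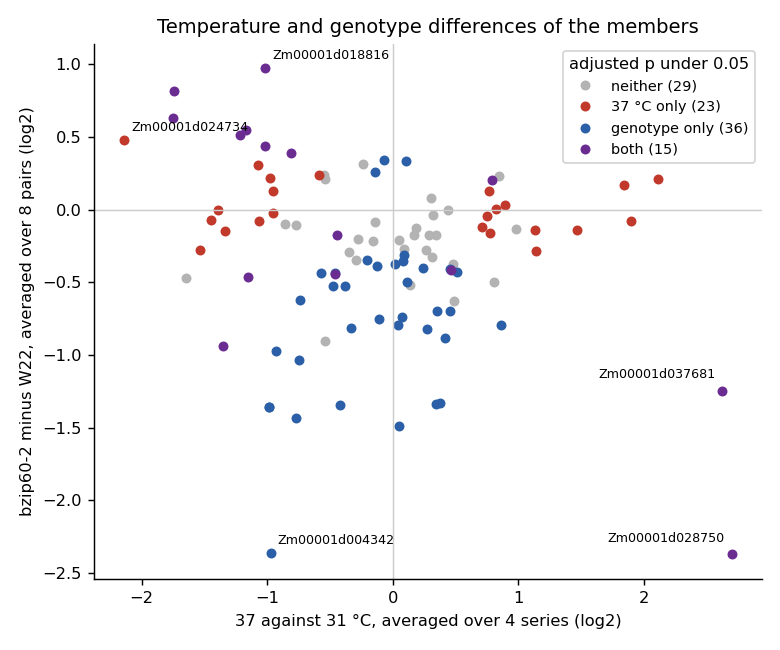
Each point is a gene of the set: the change at 37 against 31 °C averaged over 4 series (log2, horizontal) against bzip60-2 minus W22 averaged over 8 pairs (log2, vertical), coloured by which of these passed an adjusted p of 0.05. Most blue points, which passed for genotype alone, lie below 0, and Zm00001d028750 and Zm00001d004342 lie lowest.

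The genotypes also differed in the response to 37 °C, as tested on single libraries with the stages averaged, which leaves the stage difference out. The change was more positive in bzip60-2 for 42 genes and more negative for 34 (40.8% and 33.0%), against 16% and 20.5% of all genes. In the 337 genes higher at V5 the shares were 13.6% and 36.2%, so the negative share was not particular to the set. On the 16 group means 0 genes of the set and 0 of all genes passed by limma, with 24 of 103 and 997 of 22794 at an unadjusted p under 0.05. That fit held a single stage term and no level for each series, so other differences between groups stayed in its spread. The calls on single libraries rest on the spread between libraries of a group. Zm00001d029373 fell at 37 °C in W22 from 32.9, 32.8 and 31.7 FPKM to 3.42, 3.07 and 3.77 at V4 (-2.92, adjusted p = 6.44e-23) and from 16.7, 16.3 and 17.3 to 1.04, 0.770 and 0.930 at V5 (-3.22, adjusted p = 2.21e-24). In bzip60-2 it fell less at V4, by 1.07, and at V5 it rose by 0.64 between values of 0.730 to 1.55 and 2.00 to 2.67 FPKM. Zm00001d022456 fell in bzip60-2 at V5 from 36.8, 36.9 and 38.4 FPKM to 3.56, 3.92 and 3.84 (-3.01, SE 0.08, adjusted p = 5.56e-29). W22 at V5 had 6.98, 6.34 and 5.96 FPKM at 31 °C, overlapping the 7.23, 5.76 and 7.66 FPKM of 37 °C (0.08, adjusted p = 0.426).

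Without names, few other features of the genes could be examined. Apart from the identical pair, no gene had the same values as another row. In 6 cases the identifiers of neighbouring genes of the set lay within 4 of each other, among them Zm00001d044397 with Zm00001d044401 and Zm00001d044401 with Zm00001d044402. How often this holds among all genes tested was not counted, so the number cannot be judged. At V5, 15 genes were listed at 0 in at least 1 library, and 0 at V4, and 10 genes averaged under 1 FPKM at V5. The rule needs each V4 group mean above its V5 mean, which works against zeros at V4. The stage contrast in these counts thus follows in part from the choice, and the share over all genes was not counted. The SD of 3 libraries as a percent of their mean, taken as a median over the genes, was 5.28% to 8.83% in V4 groups and 7.81% to 14.3% in V5 groups, where levels were lower. By the same rule with the sign turned, 337 genes were higher at V5 in all 8 pairs. Of these 61.1% were higher in bzip60-2 and 4.15% lower, with a median of 0.36, beside 10.7%, 38.8% and -0.27 in the 103 genes. Over all genes the values were 43.6%, 4.78% and 0.20, so the share lower in the 337 genes was near that of all genes. The difference between the sets was not tested.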

How the data were processed

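Leaf RNA of 48 libraries was measured as poly(A) RNA-seq with single-end reads, per the labels' protocols. The authors deposited FPKM values in a table with 1 column per library, per the file headers. The submitters' processing notes list RSEM 1.2.12, DESeq2 1.4.5, HISAT2 2.0.4, Bowtie2 2.2.5 and HISAT without their roles. The genome build is not given in the sources used here. How reads shared by near-identical genes were divided is unknown.

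Computed here were log2(FPKM + 1), group means and limma 3.58.1 fits in R 4.3.3 (empirical Bayes, mean-variance trend, Benjamini-Hochberg over 22794 rows with at least 1 FPKM in 3 libraries). Group-mean fits held a level for each series plus temperature, or for each stage and temperature plus genotype. For the difference in response between genotypes, the group-mean fit held temperature, genotype, their interaction and a single stage term. The fits were tested on simulated data. Figures used Python 3.11.15 and matplotlib 3.10.9. The genes, lists and tests were chosen with earlier results of these data known. Named are the genes with the lowest mean difference, the highest level, up to 2 rising and 2 falling past the threshold per contrast, and those nearest the limit. The gene lists by function and the promoter motifs that had been set could not be used without names or sequences.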

Additional observations from a re-analysis of the deposited data

Results flagged for a closer look

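The genotypes differed in the change at 37 against 31 °C, by a test of that difference on single libraries with limma, for 42 genes of the set in the positive direction (bzip60-2 minus W22) and for 34 in the negative. The largest were Zm00001d028750 with a difference of 2.93 and Zm00001d029373 with 2.85, and on the other side Zm00001d022456 with -2.25 and Zm00001d008173 with -1.92. For Zm00001d028750 the log2 changes were 1.27 in W22 and 4.25 in bzip60-2 at V4, and 1.21 and 4.08 at V5. For Zm00001d008173 they were -0.76 and -2.58 at V4, and -0.81 and -2.83 at V5. At 35 °C the group means did not all keep this order. From 31 to 35 °C Zm00001d028750 went from 42.3 to 427 FPKM in W22 and from 3.83 to 15.4 in bzip60-2 at V4. At V5 it went from 11.4 to 49.3 and from 0.330 to 0.460. Zm00001d008173 went from 18.3 to 1.27 FPKM in W22 and from 34.9 to 9.76 in bzip60-2 at V4. At V5 it went from 2.55 to 0 and from 8.99 to 0.8. In W22 it was higher again at 37 °C, at 10.4 and 1.02 FPKM. Both genes were picked on the average of the 2 stages, so the likeness of V4 and V5 is not a separate test. On group means none of these 4 genes passed after adjustment (adjusted p 0.749 for Zm00001d028750 and Zm00001d008173, 1 for the other 2).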

How the results depend on the processing

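The rule gave 103 genes, and 99 to 110 when each library was left out. It gave 228 relative to size factors, 25 with a limit of -1, and 387 from the 3 pairs of bzip60-2 at 33, 35 and 37 °C alone. For the averaged temperature and genotype comparisons, the numbers of genes higher and lower were as follows. On 48 libraries without the replicate block they were 18 and 67 at 33 °C, 23 and 67 at 35 °C, 42 and 51 at 37 °C, and 24 and 70 between genotypes. That fit called 33.4% of all genes higher and 21.5% lower at 33 °C, 36.5% and 25.5% at 35 °C, 34.6% and 31.7% at 37 °C, and 68.6% and 12.4% between genotypes. With the replicate block they were 18 and 67, 23 and 67, 43 and 51, and 24 and 70. Over the V5 groups alone they were 0 and 8, 0 and 10, 4 and 9, and 1 and 14. With no floor on FPKM, 1 gene fell at 33 °C, 10 rose at 37 °C and 6 were higher in the mutant; a pseudocount of 0.1 gave 3 rises at 33 °C, and size factors gave 1 gene higher in the mutant. Chosen after seeing the data, leaving out W22 at V5 and 33 °C gave 2 rises at 33 °C, and leaving out the groups low in Zm00001d033132 gave 0 and 1 at 33 °C, 0 and 11 at 35 °C, and 4 and 14 at 37 °C. The difference in response between genotypes gave 0 and 0 on group means. Fewer groups and fewer rows enter some of these fits, and otherwise the cause was not tested.

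Leaving out each library gave 1 to 2 rises and 3 to 5 falls at 33 °C, 5 to 7 and 20 to 21 at 35 °C, 15 to 16 and 21 to 22 at 37 °C, 8 to 12 genes higher and 36 to 42 lower in the mutant, and 41 to 43 and 33 to 36 for the difference in response. The 2 rises at 33 °C came without W22 replicate 3 at V4 and 31 or 33 °C, replicate 2 of bzip60-2 at V4 and 35 °C, replicate 3 of bzip60-2 at V5 and 31 °C or 33 °C, or replicate 1 or 2 of W22 at V5 and 33 °C. In the single series the ranges were 29 to 35 and 41 to 44 in W22 at V4, 21 to 27 and 42 to 49 at V5, 28 to 33 and 48 to 53 in bzip60-2 at V4, and 48 to 54 and 30 to 31 at V5. Of 1915 repeats for the 35 named results, 1878 kept direction and call, 37 lost the call and 0 reversed. Most of these repeats left out a single library, while most of the lost calls came from the other settings. Deviations of same-numbered replicates correlated with a median of -0.00 over 360 pairs of libraries of different groups. By this measure 17 of 48 libraries correlated best with their own number. Whether same-numbered libraries share anything else cannot be told from these values. Depth is unknown, which limits the genes near 0 at V5 most.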

Other observations

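Outside the nuclear reference identifiers, 2 of the 2128 tested rows that carry an identifier of the sequencing provider and 0 of the 96 organelle rows tested met the same rule.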
